A study of Mus musculus with 20 samples.

Results

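The cytoplasmic ribosomal protein genes of the mouse prostate were followed through castration and testosterone-driven regrowth on Affymetrix MG-U74A arrays. They were taken as every probe set whose single gene symbol was Rpl or Rps followed by a digit, or was Rplp0, Rplp1, Rplp2 or Rpsa. The rule left out the Rps6k kinases (3 probe sets), which phosphorylate a ribosomal protein but are not part of the ribosome, and pseudogene symbols ending in -ps (0 probe sets). It found 49 of the 12422 probe sets that were not controls. They stand for 35 of the 8251 genes that have a probe set of their own, of which 18 belong to the small subunit and 17 to the large subunit. A further 39 probe sets list a ribosomal protein gene together with other genes. They are not members and are named nowhere, because their signal cannot be given to 1 gene.

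Each ribosome is built from a small subunit, which reads the messenger RNA, and a large subunit, which joins the amino acids, and every subunit needs its proteins in equal numbers. Mammalian cells hold their levels together largely at translation: the messengers start with a cytosine followed by a tract of pyrimidines (C or T in the DNA), the 5′ terminal oligopyrimidine or TOP motif, through which the mTOR pathway and the RNA-binding protein LARP1 switch their translation on and off. In the prostate, androgen withdrawal makes the luminal epithelium shrink and die, and androgen given back makes the gland regrow within days, which needs new ribosomes. The arrays measured messenger levels only, and neither translation nor ribosomes were measured.

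All mice were C57/B6, 10 to 12 weeks old, and each array held the whole prostate of 1 mouse. The 5 control mice were sham-treated, and the labels give them the code N3. Another 5 mice were killed 3 days after castration (C3) and 5 mice 14 days after castration (C14). The last 5 mice had been castrated 14 days earlier, received a 15 mg testosterone pellet and were killed 3 days later (C14+T3, called testosterone-treated here). No castrated mice received an empty pellet, and none without testosterone were killed at this later time. The 3 further days after castration and the placing of the pellet therefore cannot be told apart from testosterone. Whole prostates hold epithelium, stroma, blood vessels, immune cells and any attached muscle, so fewer cells of a type and less RNA per cell cannot be told apart in any value below.

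The start regions of the genes on which the results turn are shown because the TOP motif lies there. Each line gives 60 bases around the RefSeq start (30 on each side, GRCm38.p6, gene strand), and the capitals mark the longest run of C and T that begins with C. Rpl13a is first, the member with the largest change, followed by other members that were called in at least 1 comparison.

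Rpl13a: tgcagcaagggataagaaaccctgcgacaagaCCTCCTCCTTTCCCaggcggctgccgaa
Rps27: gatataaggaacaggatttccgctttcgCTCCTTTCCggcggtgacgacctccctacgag
Rpsa: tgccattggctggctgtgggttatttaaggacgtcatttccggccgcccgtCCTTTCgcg
Rps19: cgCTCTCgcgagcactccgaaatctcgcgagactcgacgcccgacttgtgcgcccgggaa
Rpl22: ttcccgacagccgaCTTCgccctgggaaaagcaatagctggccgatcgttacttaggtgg
Rplp0: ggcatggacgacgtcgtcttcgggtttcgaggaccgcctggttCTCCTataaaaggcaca
Rpl6: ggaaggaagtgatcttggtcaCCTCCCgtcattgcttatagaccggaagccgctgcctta
Rpl41: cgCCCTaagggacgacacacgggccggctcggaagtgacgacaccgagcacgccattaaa

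Rps10 and Rps18, called in no comparison, are shown too. Both hold a long run at the start and do not stand for the never-called genes as a whole. Of those with a RefSeq start, 7 of 13 had a run of at least 8 pyrimidines near it.

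Rps10: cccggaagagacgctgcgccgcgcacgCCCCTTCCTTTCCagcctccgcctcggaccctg
Rps18: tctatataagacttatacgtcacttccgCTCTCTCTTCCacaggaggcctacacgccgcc

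The Rpl13a window (chr7:45128716-45128775, minus strand) holds a run of 14 pyrimidines that begins at base 3 after the start. The Rps27 window (chr3:90213619-90213678, minus strand) holds a run of 9 and the Rps10 window (chr17:27635215-27635274, minus strand) a run of 13, both of which span the start. Rps18 (chr17:33955636-33955695, minus strand) has a run of 11 there. The Rpsa (chr9:120127736-120127795, plus strand), Rps19 (chr7:24884562-24884621, plus strand) and Rpl22 (chr4:152325696-152325755, plus strand) windows hold no run longer than 6 bases, and the same is true of Rplp0 (chr5:115559437-115559496, plus strand), Rpl6 (chr5:121204471-121204530, plus strand) and Rpl41 (chr10:128549139-128549198, minus strand). Rps19 has 3 starts in RefSeq, of which the most upstream is printed, and Rpl22 has 2, of which the downstream start is printed. Of 37 RefSeq start regions found for 28 of the 35 genes, 15 (40.5%) had a run of at least 8 pyrimidines beginning with C within 30 bases of the start, against 18.2% of 32851 start regions in the table. A run of at least 5 bases that began with C at the annotated start itself was present in 5 (13.5%), against 2.51% of all. CCGGAA, a core sequence bound by ETS-family factors, was found on either strand between 250 bases before and 50 bases after the start in 17 (45.9%), against 14.9% of all. The run of at least 8 pyrimidines was present in 2 of 8 called genes with a RefSeq start and in 7 of 13 genes that were never called. This difference was not tested. Annotated starts may differ from the starts used in the prostate. A missing run therefore does not show that a messenger lacks the TOP motif. These matches describe letters in a window and show no site in use.

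The ribosomal protein messengers were among the strongest signals on the arrays where they were measured at all. Testing required a signal over 190.8 (the overall median) on 5 or more of the 20 arrays, and 27 member probe sets for 24 genes passed (12 genes of each subunit). The mean signal of 18 of these 27 lay above the 99th percentile of all probe sets, and 18 exceeded 10000, a level reached by 83 of all 6913 tested probe sets. Signals of different probe sets depend on their probes too, so this is no ranking of messenger abundance. The 4 under 1000 were Rps27, Rps4l, Rpl7l1 and the second Rpl22 probe set. The other 22 member probe sets gave mean signals of 12.8 to 165 and were not tested. They were the only probe sets for 11 genes: Rpl32, Rpl35a, Rpl38, Rpl39, Rpl39l, Rps13, Rps14, Rps15, Rps20, Rps27l and Rps29. The second Rpl22 probe set passed with exactly 5 arrays above the limit, and a probe set for Rps29 missed it with 4. Those 5 arrays were all of sham or 3-day mice. Its highest signals were 173.9 at 14 days and 163.0 after testosterone. It was thus tested only through groups where it was high, and its falls, also where counted below, are description only. Low signals from these probe sets do not show that the messengers were scarce, since Rps4x, for example, had 4 untested probe sets beside 1 with a mean signal of 15781.

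**Figure D1:**
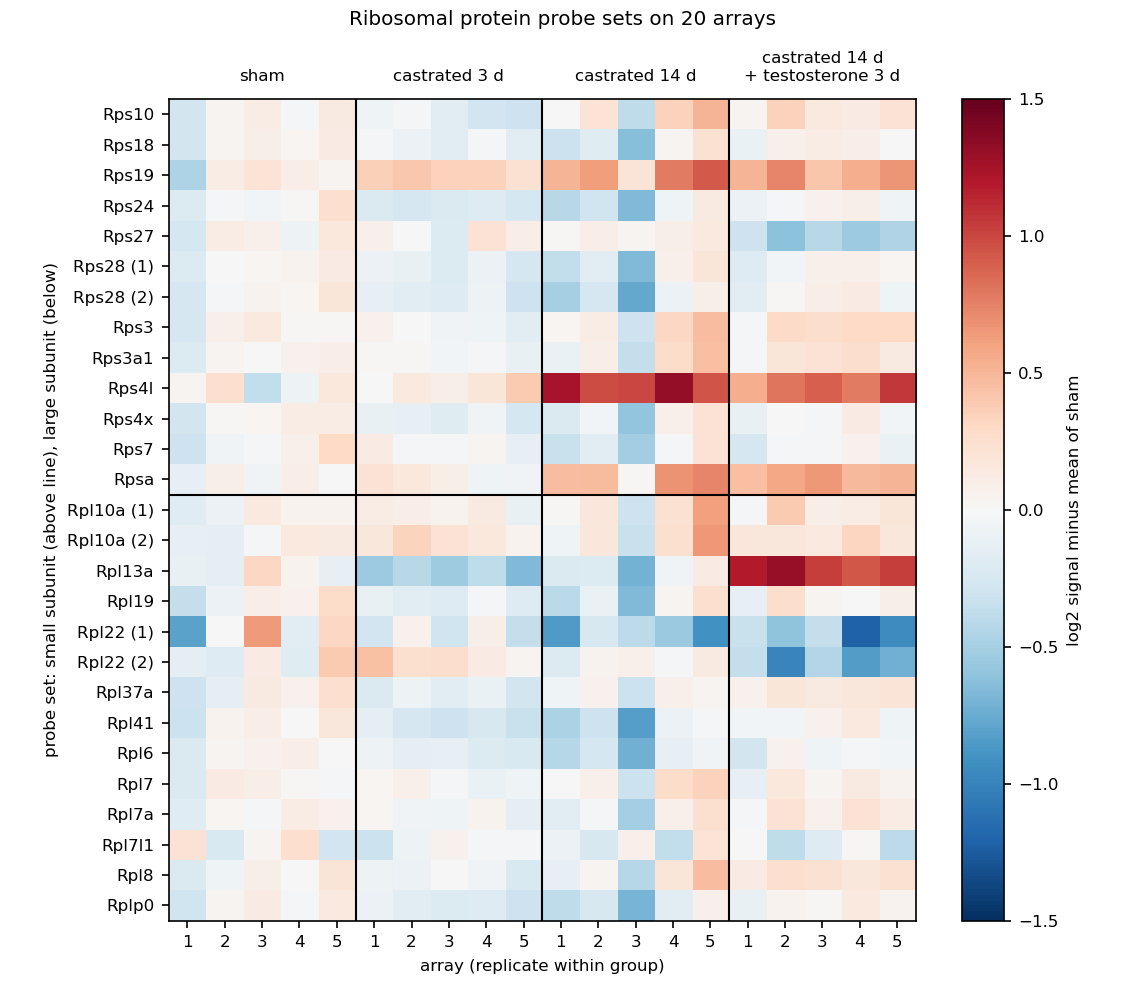
Each cell is the log2 signal of 1 tested probe set (row) on 1 array (column) minus the mean of the 5 sham arrays, with small-subunit genes above the line and large-subunit genes below it. Most rows stay pale and shift together from array to array, as on array 3 of the 14-day group, while Rpl13a, Rps4l, Rps19, Rpsa, Rpl22 (row 2 is the stronger probe set) and Rps27 depart from their neighbours.

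The 20 arrays had been scaled to a common trimmed mean (500.21 to 500.32), and their medians ranged from 154.2 to 224.6. The array titles carry running numbers in blocks by group, whose meaning the labels do not give, and an effect that followed these blocks cannot be told apart from treatment. On 4 arrays (14-day castrated mice 4 and 5, testosterone-treated mice 2 and 5) the Gapdh control signal at the 3′ end exceeded that at the 5′ end by 1.82 to 4.50 on the log2 scale, a ratio commonly used to judge RNA quality, against -0.53 to -0.08 on the other 16 arrays. They are called the Gapdh-skewed arrays here, and results that rest on them are given with and without them, a choice made after seeing the data. The same log2 ratio of the beta-actin control was 0.73, 0.80, 1.11 and 0.81 on these 4 arrays in the order given. On the other 16 arrays it was 0.29 to 0.68, a smaller gap than that of Gapdh. The prostate secretory genes Pbsn (probasin) and Msmb fell and rose again with testosterone: Msmb had a signal of 10523 ± 1727 (SD, n = 5) in sham mice, 134 ± 95.3 after 14 days and 7497 ± 1698 after testosterone. Pbsn had 16904 ± 1569, 4903 ± 854 and 10013 ± 1268 in the same groups.

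Most ribosomal protein genes that were tested were called in no comparison. Over 5 comparisons 17 of the 27 tested probe sets, for 15 genes, were never called (limma, Benjamini-Hochberg adjusted p below 0.05 over all 6913 probe sets), and their log2 changes lay between -0.30 and 0.31. Among all tested probe sets 20.4% were never called. Most of the 17 had mean signals over 10000, and whether the arrays register changes in full at such levels was not tested. The 15 genes were Rps3, Rps3a1, Rps4x, Rps7, Rps10, Rps18, Rps24 and Rps28 of the small subunit, and Rpl7, Rpl7a, Rpl8, Rpl10a, Rpl19, Rpl37a and Rpl7l1 among the Rpl symbols. Rpl8, a large-subunit protein at the peptide-forming centre, had a signal of 12200 ± 1300 (SD, n = 5) in sham mice, 11440 ± 692 at 3 days, 12623 ± 2880 at 14 days and 13974 ± 522 after testosterone.

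Rps3, a small-subunit protein near the entry channel for the messenger, gives an example of these genes in single mice. Its signals were 8960.5, 11215, 11811, 10745 and 10743.5 in the sham mice, 11156, 10578, 10253.5, 10223 and 9465.5 at 3 days, 10863, 11544, 8579, 13230.2 and 14668 at 14 days and 10533, 13042, 12797, 13079.8 and 13145 after testosterone. The 14-day group spanned both the lowest and the highest value, and every pair of groups overlapped. No comparison of Rps3 was called, with adjusted p between 0.115 and 0.855.

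The members varied together within groups. The SD within groups of a tested member was 0.19 (median, log2; range 0.13 to 0.38), against 0.22 for all tested probe sets. After group means were removed, the correlation of a member with the median of the other members over the 20 arrays had a median of 0.93, and 22 of 27 were above 0.5. It was lowest for Rpl7l1 (-0.26), Rps4l (-0.04), both Rpl22 probe sets (0.07 and 0.13) and Rps27 (0.29). These points share their arrays and their scaling, so the correlation is given only as a description. In the 14-day group the median deviation of the members from sham was -0.18, -0.03, -0.39, 0.07 and 0.22 on arrays 1 to 5. Array 3 had the lowest value and also the highest array median (224.6), and the highest values were those of arrays 4 and 5, both with a high Gapdh ratio. Whether RNA quality or scaling has a part in this spread was not tested.

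**Figure D2:**
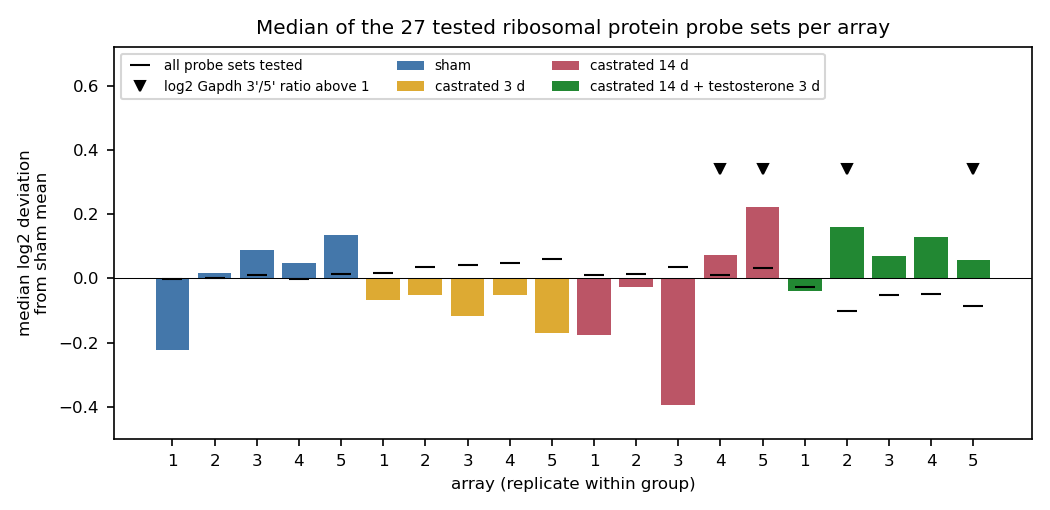
Bars give, for each array, the median log2 deviation of the 27 tested ribosomal protein probe sets from the sham mean, short black lines the same for all 6913 tested probe sets, and triangles the 4 arrays with a log2 Gapdh 3′/5′ ratio above 1. The 14-day group runs from -0.39 to 0.22, wider than any other group.

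The question of the first comparison was what happens early after androgen withdrawal. At 3 days 1 member was lower, Rpl13a, and 0 were higher, where 14.3% of all tested probe sets were called (9.84% higher, 4.46% lower). The 5 mice of each group did not overlap for Rpl13a and for Rps19 (all 3-day mice higher), and for 13.3% of all tested probe sets. Log2 changes of 24 of the 27 members lay within 0.25 of 0, against 62.6% of all tested probe sets. The median log2 change of the members was -0.09 (all tested probe sets: 0.04), and it was 0.02 under quantile normalization. That method gives each rank the same value on every array, which limits the changes of probe sets that stay near the top. Of the 27 tested members 18 had mean signals above the 99th percentile. The members' medians and counts under quantile normalization, and single values of such strong members, are therefore description only.

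Rpl13a is a large-subunit protein that also has a role outside the ribosome, in the GAIT complex that silences inflammatory messengers in myeloid cells, and its messenger is widely used as a reference in PCR assays. Its signal was 1222.5, 1194, 1643.5, 1368 and 1209.9 in the sham mice and 900.2, 982, 909, 1009 and 830.5 at 3 days. All 5 castrated mice lay below all 5 sham mice, with a log2 change of -0.51 ± 0.13 (SE), adjusted p = 0.0125. Centring the arrays on their medians brought the adjusted p to 0.0526. At 14 days the signals were 1129.8, 1142, 802, 1268 and 1439.6, which overlapped both earlier groups. In the testosterone-treated mice they were 3020, 3273, 2728, 2523 and 2713, and each of these was above every other array of the study. Rpl13a rose 2.48-fold over 14-day castrated mice (log2 change of 1.31 ± 0.13 (SE), adjusted p = 1.49e-07) and 2.14-fold over sham mice (log2 change of 1.10 ± 0.13 (SE), adjusted p = 1.54e-06). Both calls held in all 31 alternative settings, and the rise over 14 days was 1.43 on the log2 scale without the 4 Gapdh-skewed arrays.

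By 14 days after castration 3 members were higher than in sham mice (Rps4l, Rps19 and Rpsa) and 3 were lower (Rpl6, Rpl41 and the second Rpl22 probe set), 22.2% of the 27, where 52.9% of all tested probe sets were called. Of all tested probe sets 28.6% were higher and 24.3% lower. The groups did not overlap for 1 member, Rps4l, while 35.0% of all tested probe sets did not overlap. The members' median log2 change was -0.08 against 0.01 for all, and 0.05 under quantile normalization.

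Rps4l is a gene close in sequence to Rps4x, which encodes the S4 protein of the small subunit. The signals of its tested probe set were 494.5, 576.5, 368, 453 and 536 in sham mice, 478, 533, 513, 546 and 636 at 3 days, 1153, 958, 975, 1221.5 and 939 at 14 days and 708, 849.5, 906.5, 833 and 1015 after testosterone. Every mouse of the last 2 groups was above every sham mouse and every mouse of the 3-day group. The level rose 2.14-fold from sham to 14 days (log2 change of 1.10 ± 0.12 (SE), adjusted p = 5.37e-07) and also from 3 to 14 days (log2 change of 0.94 ± 0.12 (SE), adjusted p = 1.11e-05). After testosterone it stayed above sham (log2 change of 0.82 ± 0.12 (SE), adjusted p = 2.3e-05), and the difference from 14 days was not called (log2 change of -0.28 ± 0.12 (SE), adjusted p = 0.0696). The letter s in the name of this probe set marks probes that match more than 1 transcript, so the signal of a related messenger cannot be kept apart. Rps4x itself had signals of 16471 ± 1695 (SD, n = 5), 14828 ± 822, 15487 ± 3134 and 16337 ± 972 in the 4 groups and was never called. The second Rps4l probe set was too weak to be tested. Beside the rise of Rps4l, the summed signal of 14 macrophage and myeloid markers was 4349 to 5921 in sham mice. At 14 days it was 18720 to 26869, where 13 of 14 were higher and 0 lower. It was already 10153 to 12225 at 3 days (11 higher than in sham mice, 0 lower), when Rps4l was not called. With testosterone it was 8282 to 11393, where 14 of 14 were lower than at 14 days. The summed signal of 7 lymphocyte markers was 1355 to 1741 in sham mice and 1787.5 to 2707 at 3 days. At 14 days it was 3310 to 8034 (4 higher, 1 lower) and with testosterone 1527 to 2235. Of 4 basal, 12 fibroblast and 5 endothelial markers 3, 9 and 4 were also higher at 14 days and 0 lower. Of 10 luminal markers 3 were higher and 3 lower, and of 8 smooth muscle markers 1 was higher and 5 lower. Of 13 skeletal muscle markers 1 was higher and 0 lower at 14 days than in sham mice. Against 3 days, when 0 were higher than in sham mice and 1 lower, 9 were higher and 0 lower. With testosterone 1 was higher than at 14 days and 0 lower. The summed signal of these 13 was 2600 to 5855 at 3 days and 3837 to 33773 at 14 days. The part of any of these cells in the Rps4l value was not tested.

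Rps19 is a small-subunit protein needed to mature the 18S ribosomal RNA, and loss of a copy causes Diamond-Blackfan anaemia. Its signals were 6165, 9139, 9822.5, 9082 and 8761.5 in sham mice, 10860.1, 11198, 10823.5, 10763 and 9976 at 3 days, 12101, 13066, 9679, 14573.5 and 16038 at 14 days and 12057, 14167, 11303, 12357 and 13434 after testosterone. Sham values ended below the start of the 3-day and the testosterone values, and 1 array at 14 days, mouse 3, lay among them. Rps19 rose from sham to 14 days (log2 change of 0.60 ± 0.13 (SE), adjusted p = 0.000697) and from sham to testosterone (log2 change of 0.57 ± 0.13 (SE), adjusted p = 0.00123). At 3 days it was not called (log2 change of 0.34 ± 0.13 (SE), adjusted p = 0.0938).

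Rpsa encodes the small-subunit protein also known as the laminin receptor. Its signals were 3080.2, 3594.5, 3242, 3603 and 3350.5 in sham mice, 3920.2, 3746, 3566, 3219 and 3248 at 3 days, 4650.3, 4694.5, 3403, 5367 and 5599.8 at 14 days and 4606, 5053, 5310.3, 4739 and 4809 after testosterone. Of the 14-day mice, mouse 3 fell within the sham range and the other 4 were above it, and all 5 testosterone-treated mice were above all sham mice. Rpsa rose from sham to 14 days (log2 change of 0.47 ± 0.11 (SE), adjusted p = 0.00142), from 3 to 14 days (log2 change of 0.40 ± 0.11 (SE), adjusted p = 0.00703) and from sham to testosterone (log2 change of 0.54 ± 0.11 (SE), adjusted p = 0.00049). Without the 4 Gapdh-skewed arrays the rise from 3 to 14 days was 0.25 and was not called (adjusted p = 0.0983), nor was it with arrays centred on their medians (adjusted p = 0.0531). The other calls of Rpsa held in all 31 settings.

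**Figure D3:**
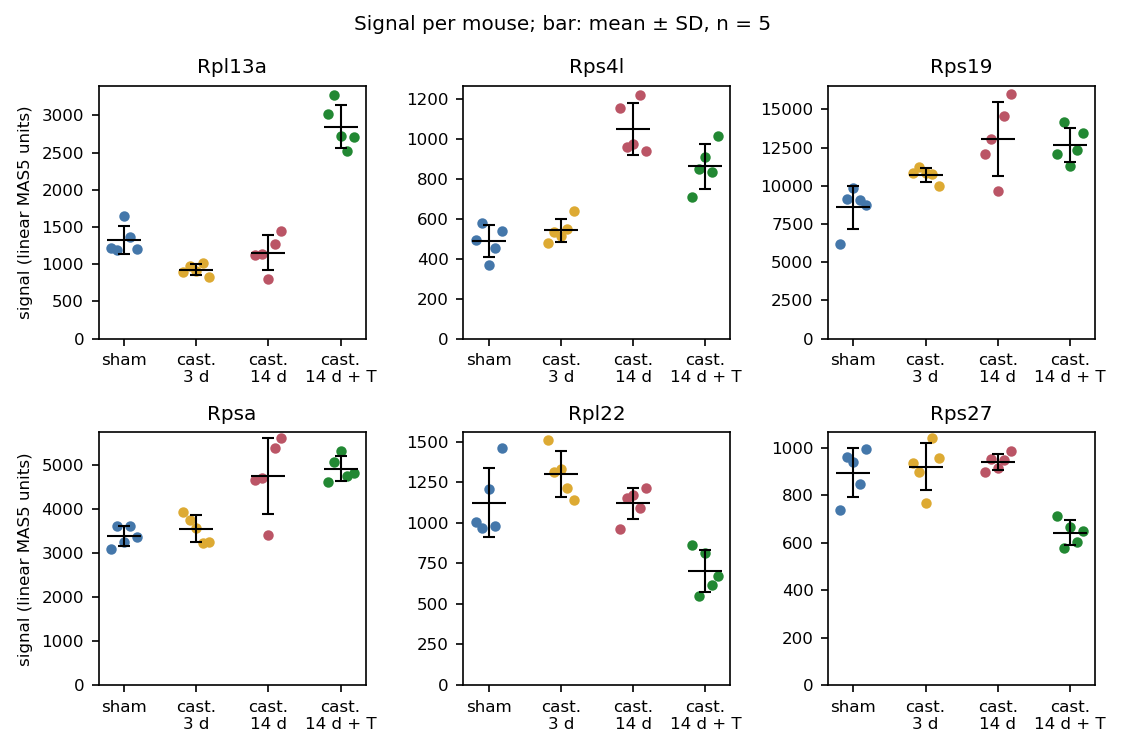
Points are the deposited linear signals of single mice for 6 members, and bars give the mean ± SD of the 5 mice in a group. Rpl13a is highest after testosterone (2523 to 3273), Rps4l steps up at 14 days (939 to 1222), and Rpl22 (its stronger probe set) and Rps27 are lowest after testosterone, at 551 to 862 and 577 to 712.5.

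Rpl6 and Rpl41 are large-subunit proteins, the second among the smallest proteins known. The Rpl41 probe set carries the letter f in its name, as do a probe set of Rps28 and a probe set of Rpl10a. This letter marks probes shared within a family of similar sequences, so related messengers cannot be kept apart. Rpl6 signals were 10799, 12932, 13128, 13514 and 12652 in sham mice and 9337, 10466, 7605, 11578 and 12083.5 at 14 days, which overlapped (log2 change of -0.32 ± 0.11 (SE), adjusted p = 0.0198). The Rpl6 call was lost without 14-day mouse 3 (-0.22, adjusted p = 0.063), under quantile normalization (-0.13, adjusted p = 0.0753), after centring on the medians (-0.35, adjusted p = 0.0623) and with the 2 groups alone (adjusted p = 0.0688). Rpl41 signals were 18496, 24091, 24786, 23226 and 26029 in sham mice and 16664, 18700.4, 13052.5, 21819 and 22856 at 14 days, again with overlap (log2 change of -0.34 ± 0.13 (SE), adjusted p = 0.0282). Under quantile normalization the Rpl41 change at 14 days was -0.03 and not called (adjusted p = 0.684). Rpl41 had the highest mean signal of all probe sets, where that method largely fixes a change near 0 in advance. This value is therefore no check of the call. The Rpl41 call was lost without 14-day mouse 3 (-0.22, adjusted p = 0.0899). Without sham mouse 2, 3 or 5 or 14-day mouse 1 the change stayed at -0.33 to -0.30 while the adjusted p was 0.0535 to 0.0702, and it was 0.0508 after centring on the medians and 0.0956 with the 2 groups alone. The second Rpl22 probe set fell from 221 ± 81.8 (SD, n = 5) to 136 ± 29.3 (log2 change of -0.59 ± 0.22 (SE), adjusted p = 0.0327), and its call was lost without the 4 Gapdh-skewed arrays (-0.50, adjusted p = 0.144) and with the 2 groups alone (adjusted p = 0.0616). Without sham mouse 2, 3 or 5 or 14-day mouse 1 or 5 its change was -0.59 to -0.43 and not called (adjusted p from 0.0524 to 0.106). This probe set passed the filter only through sham and 3-day arrays, so its fall is description only.

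How many members fell at 14 days depended on which arrays were used. The count of 3 lower became 6 without sham mouse 1 or 14-day mouse 4, 5 without 14-day mouse 5, and 1 without sham mouse 2, 3 or 5 or 14-day mouse 1 or 3. Shares of all tested probe sets with 1 array left out are not given, so these counts are description only. Without the 4 Gapdh-skewed arrays 10 members were lower and 3 higher (23.2% and 26.2% of all tested probe sets), with a median of -0.17. The 10 were Rpl6, Rpl13a, Rpl19, Rpl41, Rplp0, Rps7, Rps18, Rps24 and both Rps28 probe sets. Under quantile normalization 10 were higher and 1 lower (27.6% and 27.6% of all). The rises of Rps4l, Rps19 and Rpsa were called in all of these, and the direction of the members' median at 14 days differed with the arrays and the scaling used.

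From 3 to 14 days 2 members rose, Rps4l and Rpsa, and 0 fell, against 40.5% of all tested probe sets called (20.2% higher, 20.4% lower). Rps4l was the member without overlap between the groups, as were 32.4% of all tested probe sets. The members' median log2 change was -0.01, as was that of all, and 0.05 under quantile normalization. Without 14-day mouse 3 the count of higher members was 6, given without a share of all tested probe sets and as description only. Without the 4 Gapdh-skewed arrays 1 rose (Rps4l) and 3 fell (Rpl6, Rps7 and 1 Rps28 probe set), where 17.5% of all were higher and 18.7% lower.

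The next comparison set testosterone-treated mice against 14-day castrated mice. What is called a change with testosterone also holds the 3 further days after castration and the placing of the pellet. Against 14-day castrated mice 3 members were higher (Rpl13a, Rpl41 and Rplp0) and 2 were lower (Rpl22 and Rps27), 18.5% of the 27, where 44.8% of all tested probe sets were called (18.2% higher, 26.6% lower). The groups did not overlap for Rpl13a, Rpl22 and Rps27, and 30.7% of all tested probe sets did not overlap. The members' median was 0.10 while that of all tested probe sets was -0.10, a difference of 0.20. This difference was 0.36 without the 4 Gapdh-skewed arrays and -0.04 under quantile normalization. Of all called probe sets 40.6% were higher, and 64.1% after centring on the medians.

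Rpl22 is a large-subunit protein that is not needed for translation as such and that binds messengers, among them that of its paralogue Rpl22l1. The signals of its stronger probe set were 1007, 968, 1211, 978.5 and 1461 in sham mice, 1509.9, 1312, 1330.4, 1213 and 1139 at 3 days, 965, 1152, 1172, 1093 and 1218.5 at 14 days and 862, 551, 817, 615 and 671 after testosterone. All 5 testosterone-treated mice lay below every mouse of the other 3 groups. Rpl22 fell with testosterone against 14 days (log2 change of -0.68 ± 0.13 (SE), adjusted p = 0.000358) and against sham (log2 change of -0.67 ± 0.13 (SE), adjusted p = 0.000363). The second probe set fell against sham (log2 change of -0.69 ± 0.22 (SE), adjusted p = 0.0148) but was already low at 14 days, and its change with testosterone was not called (log2 change of -0.10 ± 0.22 (SE), adjusted p = 0.743). Its fall against sham was not called without the 4 Gapdh-skewed arrays (adjusted p = 0.0687), after centring on the medians (0.051), under quantile normalization (0.0537) or with the 2 groups alone (0.0518). The second probe set also passed the filter only through sham and 3-day arrays, so this fall is description only. Whether both probe sets read the same transcripts was not tested.

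Rps27, a zinc-finger protein of the small subunit, was also lowest after testosterone. Its signals were 736.5, 959, 940.1, 847 and 994 in sham mice, 936, 897, 769, 1041 and 957 at 3 days, 898, 953, 916.5, 948 and 988 at 14 days and 712.5, 576.5, 665, 604 and 647 after testosterone. The testosterone values ended below the lowest value of each other group. Rps27 fell with testosterone against 14 days (log2 change of -0.55 ± 0.09 (SE), adjusted p = 0.000103) and against sham (log2 change of -0.47 ± 0.09 (SE), adjusted p = 0.000418), and both calls held in all 31 settings.

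Rplp0, the stalk protein that recruits elongation factors to the large subunit and another common PCR reference, had signals of 16073, 20289.9, 21456, 19466 and 21794.5 in sham mice, 18572, 17723, 17042, 17235 and 15915 at 3 days, 15079, 16629.6, 12177, 17725 and 20787 at 14 days and 18209, 20503, 20007, 21733 and 20499 after testosterone. The 14-day and testosterone values overlapped through 14-day mouse 5. Rplp0 rose with testosterone (log2 change of 0.31 ± 0.12 (SE), adjusted p = 0.0355), but 10 of 31 settings lost the call. The change was 0.12 under quantile normalization (adjusted p = 0.133) and 0.21 without 14-day mouse 3 (adjusted p = 0.116). Without 14-day mouse 1 or 2 or testosterone-treated mouse 2, 3, 4 or 5 it stayed at 0.29 to 0.32, with adjusted p from 0.0511 to 0.079, and adjusted p was 0.066 without the filter and 0.0862 with the 2 groups alone. Rpl41 signals were 22558.5, 22470, 24256, 25619.5 and 22086 after testosterone, which overlapped the 14-day values (log2 change of 0.36 ± 0.13 (SE), adjusted p = 0.0274). Under quantile normalization the Rpl41 change with testosterone was 0.07 and not called (adjusted p = 0.361). For the strongest probe set that method largely fixes a change near 0, so this value is no check of the call. The Rpl41 call was lost without 14-day mouse 3 (0.23, adjusted p = 0.0893). Without 14-day mouse 1 or testosterone-treated mouse 3 or 4 the change stayed at 0.32 to 0.34, with adjusted p from 0.0526 to 0.0663, and adjusted p was 0.0514 without the filter and 0.0754 with the 2 groups alone.

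The count of 3 members higher with testosterone was 1 without 14-day mouse 1 or 3 or testosterone-treated mouse 3 or 4, 5 without testosterone-treated mouse 1, 6 without 14-day mouse 4 and 9 without 14-day mouse 5. These counts, too, stand without shares of all tested probe sets and are description only. Without the 4 Gapdh-skewed arrays 10 members were higher and 2 lower (17.9% and 22.6% of all tested probe sets), and the members' median was 0.28. The 10 were Rpl6, Rpl7a, Rpl8, Rpl13a, Rpl41, Rplp0, Rps18, Rps24 and both Rps28 probe sets. Their rises other than that of Rpl13a lay between 0.32 and 0.59. Under quantile normalization 1 was higher and 3 lower (20.1% and 21.5% of all), with a median of -0.06. Rpl13a was higher, and Rpl22 and Rps27 lower, in each of these settings.

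Against sham mice, testosterone-treated mice had 4 members higher (Rpl13a, Rps4l, Rps19 and Rpsa) and 3 lower (both Rpl22 probe sets and Rps27), 25.9% of the 27, where 53.0% of all tested probe sets were called (23.5% higher, 29.5% lower). The groups did not overlap for 6 of the 27 members, a smaller share than the 31.4% of all tested probe sets, and those 6 were the called members other than the second Rpl22 probe set. This comparison and those above share sham or 14-day mice, so their calls are not independent. The members' median was 0.05 (all tested: -0.09), and 0.08 under quantile normalization. Rpl6, Rpl41 and Rplp0 were close to their sham levels, with log2 changes of -0.07, 0.01 and 0.03. Smooth muscle markers also differed between these groups: the summed signal of 8 genes was 31687 to 39368 in sham mice, 20985 to 27094 at 14 days and 44089 to 49309 with testosterone (6 of 8 higher than at 14 days, 0 lower). The summed signal of 13 skeletal muscle markers ranged from 4660 to 20059 in sham mice, 3837 to 33773 at 14 days and 12509 to 37480 with testosterone (1 higher than at 14 days, 0 lower). The part of either tissue in the changes of Rpl13a, Rpl22 and Rps27 was not tested.

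**Figure D4:**
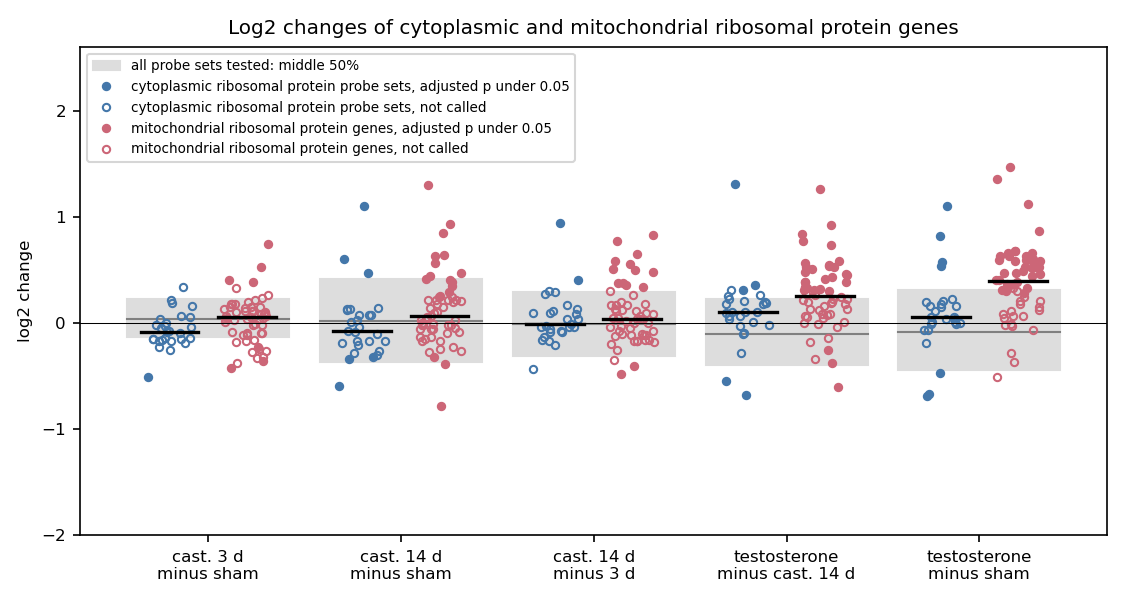
Log2 changes of the 27 cytoplasmic ribosomal protein probe sets (blue) and of 56 mitochondrial ribosomal protein genes (red) in the 5 comparisons, with filled points called at adjusted p below 0.05, black bars the medians and grey boxes the middle 50% of all tested probe sets. The cytoplasmic medians stay between -0.09 and 0.10 (the signs of the first 4 turn under quantile normalization), and the mitochondrial medians are 0.25 and 0.39 in the comparisons with testosterone. Against 14 days the order of these medians turned without the 4 Gapdh-skewed arrays (0.28 cytoplasmic, 0.19 mitochondrial).

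Other genes of ribosome production were read from lists written with earlier results of these data known. The proteins of the mitochondrial ribosome belong to a separate machine that translates the few messengers of the mitochondrial genome. Of 56 such genes 26 rose and 3 fell with testosterone (median log2 change 0.25), where 18.2% of all tested probe sets rose and 26.6% fell. Against sham 36 rose and 0 fell (0.39), where 23.5% of all tested probe sets rose and 29.5% fell. At 3 days 4 rose and 3 fell (9.84% and 4.46% of all), and at 14 days 14 rose and 3 fell (28.6% and 24.3% of all). Mrps12 went from 738 ± 66.7 (SD, n = 5) at 14 days to 1808 ± 363 with testosterone, a log2 change of 1.26 ± 0.15 (SE, adjusted p = 1.81e-06). Mrpl18 went from 2907 ± 216 to 5599 ± 1085 (0.92 ± 0.12, adjusted p = 4.17e-06) and Mrps25 from 475 ± 101 to 861 ± 182 (0.84 ± 0.20, adjusted p = 0.00186). Mrpl13 was already higher at 14 days, with 364 ± 77.2 in sham mice, 900 ± 82.0 at 14 days and 945 ± 179 with testosterone. More rose than fell with testosterone also after centring on the medians (34 rose, 0 fell), under quantile normalization (30 rose, 1 fell) and without the 4 Gapdh-skewed arrays (21 rose, 3 fell). Of all 6913 tested probe sets 1827 rose and 1024 fell after this centring. Under quantile normalization 20.1% of all rose and 21.5% fell, and without those arrays 17.9% and 22.6%. For testosterone against 14 days the mitochondrial median was 0.45 after centring on the medians, beside 0.30 for the cytoplasmic members, and 0.19 without the 4 Gapdh-skewed arrays, beside 0.28, so which median was higher depended on the arrays. The difference between the mitochondrial and the cytoplasmic genes was not tested.

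Among 16 other translation genes whose messengers belong to the TOP class, such as elongation factors, 5 rose and 3 fell from sham to 14 days and 2 rose and 2 fell with testosterone, with medians of -0.02 in both. These counts turned with the setting: at 14 days 2 rose and 5 fell without the 4 Gapdh-skewed arrays, and with testosterone 5 rose and 0 fell after centring on the medians (median 0.18) but 1 rose and 6 fell under quantile normalization (-0.14). Of all tested probe sets 26.2% rose and 23.2% fell at 14 days without those arrays. With testosterone 1827 of all 6913 rose and 1024 fell after centring on the medians, and 20.1% and 21.5% under quantile normalization. Nap1l1, a histone chaperone, went from 395 ± 80.5 in sham mice to 661 ± 61.0 at 14 days and 988 ± 71.4 with testosterone, and rose in both steps (0.74 ± 0.13, adjusted p = 0.000106, then 0.57 ± 0.13, adjusted p = 0.00137). Eef2, the translocation factor of elongation, fell from 10119 ± 1126 to 6663 ± 617 at 14 days (-0.60 ± 0.12, adjusted p = 0.000458) and was 7397 ± 1456 with testosterone, a change that was not called (adjusted p = 0.409). Naca, which shields new peptides on the ribosome, rose from sham to 14 days (0.43 ± 0.12, adjusted p = 0.00534).

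Ribosome assembly genes were mixed. Of 68 measured, 17 rose and 10 fell from sham to 14 days, 8 rose and 8 fell with testosterone, and 19 rose and 9 fell from sham to testosterone. At 14 days 11 rose and 13 fell without the 4 Gapdh-skewed arrays (26.2% and 23.2% of all tested probe sets). With testosterone 16 rose and 3 fell after centring on the medians, where 1827 of all 6913 tested probe sets rose and 1024 fell. Nhp2 and Nop56, which act with small nucleolar RNAs in modifying ribosomal RNA, rose with testosterone (0.71 ± 0.16, adjusted p = 0.00109 and 0.64 ± 0.14, adjusted p = 0.000997). Fbl, the methyltransferase fibrillarin, went from 1170 ± 149 in sham mice to 1459 ± 88.2 at 14 days and 1875 ± 145 with testosterone. Sbds, which releases the assembly factor eIF6 from the new large subunit, fell with testosterone from 1614 ± 131 to 884 ± 38.3 (-0.86 ± 0.11, adjusted p = 5.09e-06). Ncl, nucleolin, fell from 4653 ± 1177 in sham mice to 2348 ± 495 at 14 days (-0.96 ± 0.29, adjusted p = 0.00884).

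Of 21 regulators of ribosome production, 6 rose and 9 fell from sham to 14 days, and 3 rose and 8 fell with testosterone (median -0.28). After centring on the medians 6 rose and 4 fell with testosterone (median -0.09), where 1827 of all 6913 tested probe sets rose and 1024 fell. Eif4ebp1, the mTOR target that blocks cap-dependent translation, fell from 776 ± 85.4 in sham mice to 448 ± 51.8 already at 3 days (-0.78 ± 0.10, adjusted p = 5.85e-05). It was 445 ± 31.5 at 14 days (-0.78 ± 0.10 against sham, adjusted p = 3.76e-06) and 447 ± 52.6 with testosterone. Ddit4, an mTOR inhibitor, went from 1083 ± 139 in sham mice to 491 ± 83.3 at 14 days and 691 ± 132 with testosterone, a fall and then a rise (adjusted p = 3.27e-06 and 0.0118). Mxd4, an antagonist of Myc at its target genes, fell from 1941 ± 266 to 845 ± 105 at 14 days (-1.19 ± 0.13, adjusted p = 6.18e-07), and Mnt, another such antagonist, rose from 157 ± 50.1 to 341 ± 57.7 (1.11 ± 0.18, adjusted p = 4.22e-05) and returned to 165 ± 17.8 with testosterone. Larp1, which was picked from its list after its values were seen because its protein binds the TOP motif, fell from 1638 ± 77.8 to 1141 ± 53.3 at 14 days (-0.52 ± 0.07, adjusted p = 8.22e-06). None of these lists was tested as a list, and their counts stand beside the shares of all tested probe sets called. For 14 days against sham this share was 52.9% (28.6% higher, 24.3% lower). For testosterone it was 44.8% against 14 days (18.2% higher, 26.6% lower) and 53.0% against sham (23.5% higher, 29.5% lower).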

How the data were processed

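RNA of whole prostates (RNeasy) from 20 mice, 5 per group, was hybridised to 1 array each, per the labels' protocols. The deposited values are intensities: 1 linear signal per probe set, made by the authors with MAS5 version 5.0, per the submitters' processing notes. Scanner settings and a genome build are not given in the sources used here. Symbols came from GEO's platform annotation, and all 49 member probe sets kept theirs by Entrez ID in a RefSeq table (GRCm38.p6). RefSeq start regions came from the same build.

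Of 12488 probe sets, 66 controls were left out. Values were analysed as log2(signal + 12.7), the pseudocount being the 10th percentile of all values, so changes of weak probe sets are understated. With the filter given above, 6913 (55.65%) were tested. A single limma fit (version 3.58.1, R 4.3.3) of all 4 groups was tested two-sided for 5 comparisons, with p adjusted by Benjamini-Hochberg within each over all tested probe sets. Signals are mean ± SD, changes ± SE of the fit, and folds are back-transformed log2 changes. No pair of arrays shared more than 0.37% of values. The number of arrays limits the precision. The fit was tested on simulated data.

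The members, gene lists and tests were chosen with earlier results of these data known. Named members are, per comparison, up to 6 genes with the largest rise and up to 6 with the largest fall among those called, by the probe set of highest mean signal, and a fixed list of which Rplp0, Rpsa, Rps3, Rps19 and Rpl22 were tested. Of each pathway list, genes were taken from up to 3 with the largest change among those called. The second Rpl22 probe set, genes called only in an alternative, Rpl8, Rps4x and some genes of the pathway lists were named after their values were seen. Lists of luminal, basal, fibroblast and endothelial markers were computed too: of 10, 4, 12 and 5 genes tested, 3, 3, 9 and 4 were higher at 14 days than in sham mice and 3, 0, 0 and 0 lower. Alternatives were pseudocounts of 1 and 43.2, no filter or one on the mean, centring on the median or 75th percentile, quantile normalization, the compared groups alone, array weights, a mean-variance trend, 1 probe set per gene, probe sets without a suffix letter, and leaving out each array.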

Additional observations from a re-analysis of the deposited data

Results flagged for a closer look

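A single value stood apart from the others of its group: the Rps3 signal of testosterone-treated mouse 1 was 10533, below the other 4 mice of that group, whose signals were between 12797 and 13145. Its gap to the nearest mouse, as a share of the group's range, exceeded Dixon's 95% critical value for 5 samples (0.71). Of 48 groups of named members checked, 1 met this, and chance alone gives about 1 in 20, or 2.4 of 48. No comparison of Rps3 was called with this mouse included.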

How the results depend on the processing

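No paired analysis applied, because each array held the prostate of a different mouse. The labels carry no replicate numbers, so the mouse numbers used here follow the order of the samples and link no mice between groups. Of 21 called values of the named members, 13 were called in every one of the alternative settings run (31, or 30 for the second Rpl22 probe set), 8 were lost in at least 1 and 0 reversed. Of 34 values not called, 13 were called in at least 1 alternative. The counts of members called were less stable. At 3 days against sham (0 higher, 1 lower), 1 was higher under quantile normalization and with array weights, 3 were lower without the filter and 0 with arrays centred on the median. At 14 days against sham (3 higher, 3 lower), 10 were higher and 1 lower under quantile normalization. The count lower was 5 with the larger pseudocount or a mean-variance trend, 6 with array weights or centring on the 75th percentile, 8 without the filter, 1 with centring on the median, 0 with the 2 groups alone and 10 when the Gapdh-skewed arrays were left out. Of all tested probe sets 1679 were lower in the main setting, 1745 with centring on the median and 2012 on the 75th percentile. Without the Gapdh-skewed arrays 1607 were lower, and under quantile normalization 1906 were higher and 1907 lower. At 14 against 3 days (2 higher, 0 lower), the count higher was 8 under quantile normalization, 5 with array weights, and 1 with centring on the median, with probe sets without a suffix letter or when the Gapdh-skewed arrays were left out. The count lower was 3 with array weights or without those arrays, and 1 without the filter or with the 2 groups alone. Of all tested probe sets 1395 were higher in the main setting, 1407 under quantile normalization and 1069 with centring on the median. Without the Gapdh-skewed arrays 1210 were higher and 1294 lower, against 1407 lower in the main setting. For testosterone against 14 days (3 higher, 2 lower), the count higher was 9 with centring on the median or array weights, 7 with centring on the 75th percentile, 10 when the Gapdh-skewed arrays were left out, and 1 under quantile normalization or with the 2 groups alone. The median, 0.10, was 0.30 with centring on the median, -0.057 under quantile normalization and 0.28 when those arrays were left out. Of all tested probe sets 1259 were higher in the main setting, 1827 with centring on the median and 1596 on the 75th percentile. Without the Gapdh-skewed arrays 1239 were higher, and under quantile normalization 1391. For testosterone against sham (4 higher, 3 lower), 8 were higher under quantile normalization and 10 lower without the filter, and the median, 0.05, was 0.22 with centring on the median. Of all tested probe sets 1624 were higher in the main setting and 1723 under quantile normalization. Counts over all probe sets are not given for the other settings or with 1 array left out. Member counts there are description only. The cause of these differences in counts was not tested.

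Leaving out each array in turn gave 0 to 0 higher and 1 to 1 lower at 3 days against sham (median -0.14 to -0.06). At 14 days against sham it gave 3 to 3 higher and 1 to 6 lower (-0.15 to 0.01), and at 14 against 3 days 2 to 6 higher and 0 to 0 lower (-0.08 to 0.08). For testosterone against 14 days it gave 1 to 9 higher and 2 to 3 lower (-0.00 to 0.19), and against sham 4 to 4 higher and 3 to 3 lower (-0.03 to 0.10). Of all called probe sets, the share that was higher moved from 44.3% to 62.7% in testosterone against sham with centring on the median, and from 68.8% to 52.7% at 3 days against sham with centring on the 75th percentile. Scanner files were not analysed here, so the background correction and summary made in MAS5 could not be varied, and 22 weak member probe sets gave no test.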
